A study of Homo sapiens with 4 samples.

Results

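The genes PUF60, SLC20A2, MDH1, WDR74, CEP170, SRC and CDC42BPA were examined because some of their RefSeq transcripts were listed higher and others lower after knockdown of CEBPG. They make up 7 of the 16504 gene symbols of the table and 23 of its 28918 transcript rows with a symbol and values. The rule took every row with one of these symbols, and the list itself was chosen by the FPKM differences between knockdown and control, so all values of that difference are given here as a description and not as a test. Each of the 7 genes had at least 1 row that was higher in both knockdown libraries than in both control libraries, and at least 1 that was lower. The choice of the list favoured this. How many other genes have such rows was not counted, so nothing is read from it.

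RNA-seq was performed on 4 libraries labelled NB4, a cell line derived from human acute promyelocytic leukemia. The control group (NC, CEBPG present) and the knockdown group (CEBPG3) hold 2 libraries each. In the study methods, short hairpin RNAs (shRNAs) were delivered by a lentiviral vector and stable cells were selected with puromycin, which both groups share, and the number 3 in the knockdown label was read as the third shRNA against CEBPG, an assumption. Nothing in the labels says that the 2 libraries of a group came from separate cultures, so p-values measure only the spread between these samples, which may be technical.

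Most human genes are transcribed into several RNAs that differ in where transcription starts, which exons are joined and where the RNA ends. Transcripts of a gene may encode the same protein or different ones, and a gene sum that stays level can hide an exchange between them. Short reads from exons that transcripts share must be divided among them by the quantification program, whereas reads over a distinct exon or junction tell them apart. How the reads were divided here is not known, so the shares and exchanges given below may in part or in whole come from that division, which was not tested. The 7 genes have unlike roles. PUF60 is a poly-U binding splicing factor, SLC20A2 a sodium-dependent phosphate transporter, MDH1 the cytosolic malate dehydrogenase, WDR74 a nucleolar protein of ribosome assembly, CEP170 a centrosomal protein, SRC a non-receptor tyrosine kinase and CDC42BPA a kinase that binds CDC42.

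Values are FPKM (fragments scaled by transcript length and by mapped reads), so rows of a gene can be added and compared. The share of a row is its percentage of the sum over all rows of its gene, and it does not depend on how a library was scaled. CEBPG itself, the target, was at 17.1 and 18.1 FPKM in NC cells and 6.91 and 7.96 FPKM in CEBPG3 cells. FPKM summed to between 345340 and 366139 per library and read depth was unknown. The levels of marker genes did not match the NB4 label, which is kept here as the name of the libraries. Of 12 promyelocytic and myeloid markers, 7 were under 1 FPKM in every library, among them the granule proteins AZU1 and PRTN3, and LYZ, SPI1 and CD68 were at 10 FPKM or more. The 12 summed to 62.02 to 63.2 FPKM in NC and 89.2 to 92.3 FPKM in CEBPG3 cells, and CD68 carried most of this difference (20.6 and 18.5 FPKM against 47.3 and 43.9 FPKM), while LYZ was at 20.1 and 18.1 FPKM against 15.0 and 15.5 FPKM. Of 20 erythroid markers, 16 were at 10 FPKM or more in every library, HBG2 between 2890 and 3766 FPKM, while SLC4A1 and AHSP were under 1 FPKM. The erythroid sum was 8336 to 8826 FPKM in NC and 9227 to 9808 FPKM in CEBPG3 cells, and the part of either marker list in the results was not tested. In such bulk samples, fewer cells that carry an RNA and less of it per cell cannot be told apart.

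Of the 23 rows, 7 were higher and 13 were lower in both knockdown libraries than in both control libraries, and 3 overlapped. Among all 15795 rows with a mean of at least 1 FPKM, 28.1% were higher and 25.8% lower without overlap, and limma called 0.158% at an adjusted p under 0.05. The choice of the members fixed the count among the 23 and nothing is read from it. A mean of at least 1 FPKM was reached by 18 of the 23 rows. The other 5 were NM_014281 and NM_001271100 of PUF60, NM_006749 of SLC20A2, NM_001199112 of MDH1 and NM_005417 of SRC, the last with a mean of 0.941 FPKM. A stricter limit asked for a row over 1 and a row under -1 on the log2(FPKM + 1) scale. Of the 15795 rows, 1.73% were over 1 and 1.74% under -1. Of 3353 genes with at least 2 rows at a mean of at least 1 FPKM, 47 were opposed in this way (1.40%). Among the 7 genes, PUF60 and SLC20A2 were opposed. SRC failed this limit only through the low mean of NM_005417, and in the other 4 genes the lower row changed by less than 1, as did the higher row of CDC42BPA (0.99).

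**Figure D1:**
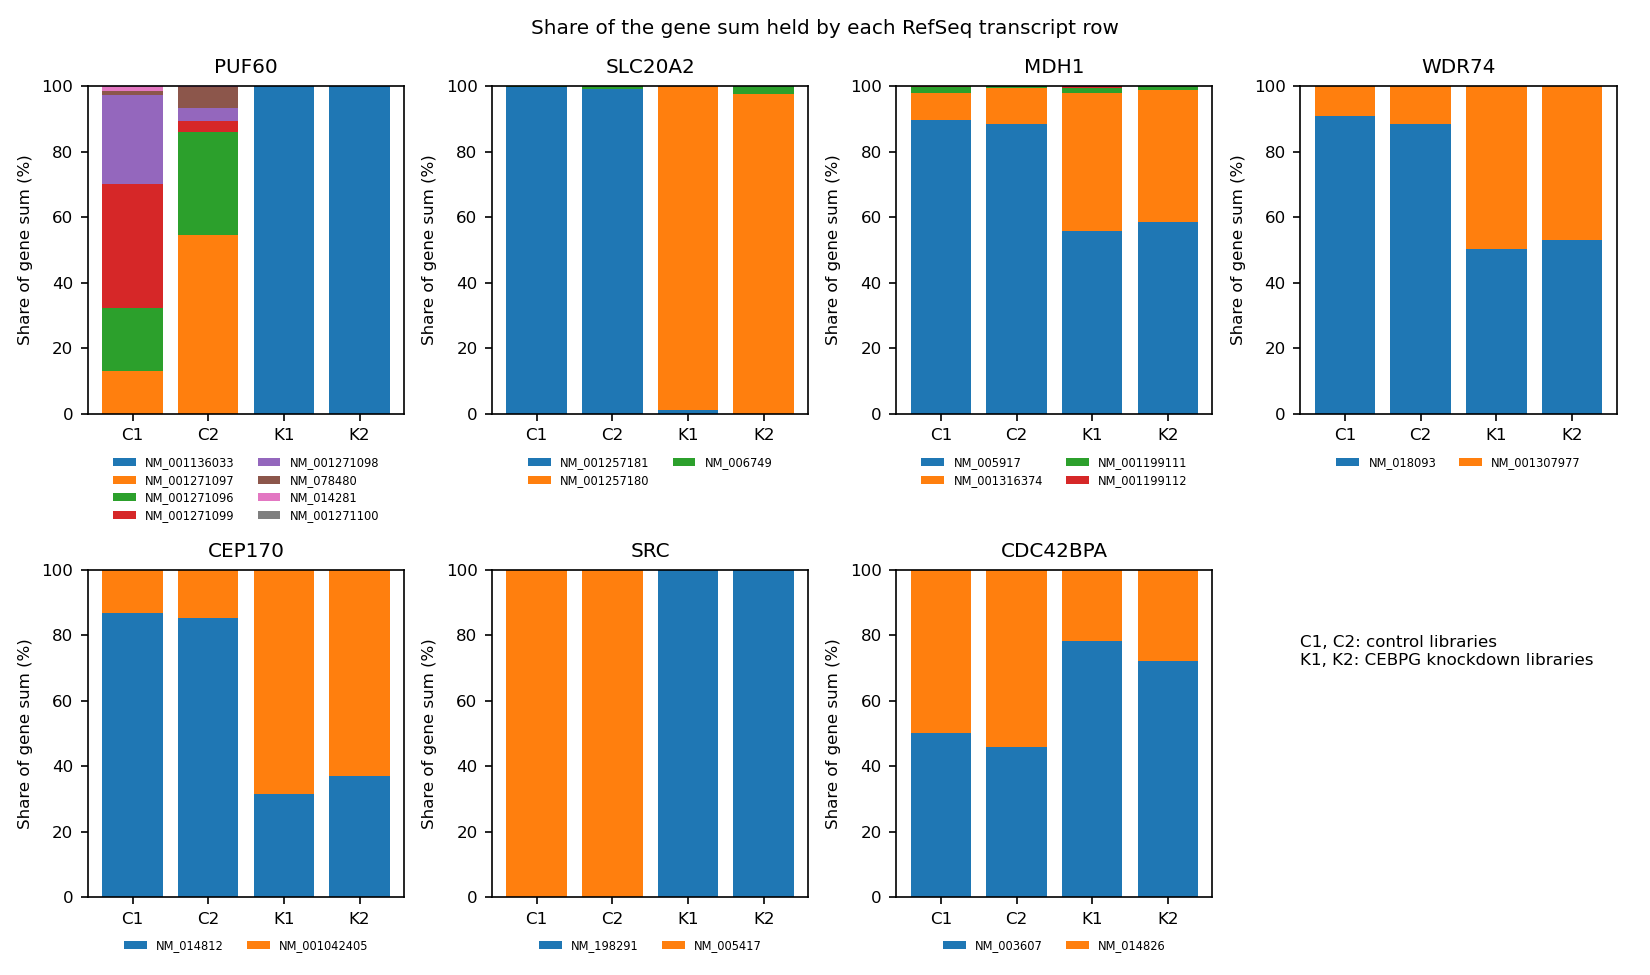
Share of the gene sum (percent, y axis) held by each RefSeq transcript row (colours) in the 2 control libraries (C1, C2) and the 2 knockdown libraries (K1, K2). Almost the whole listed sum of PUF60, SLC20A2 and SRC lay on other rows in the knockdown libraries, against 27.2% to 51.7% of it for MDH1, WDR74, CEP170 and CDC42BPA.

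In PUF60 all but a trace of the signal lay on other rows after knockdown. PUF60 is a factor that helps to define 3′ splice sites. It lies on chromosome 8 at positions 143816344 to 143830709 of the minus strand (GRCh38, GENCODE 44). The row NM_001136033 was at 0.0217 and 0.0405 FPKM in NC cells and at 51.5 and 48.6 FPKM in CEBPG3 cells, where it held 100% of the gene in both. The other 7 rows of PUF60 were listed at 0 in both knockdown libraries. In NC cells most of the signal lay on 4 of these, and not in the same proportions. NM_001271097 was at 9.07 FPKM in control 1 and 30.2 FPKM in control 2. NM_001271099 stood the other way, at 26.1 and 1.82 FPKM. NM_001271098 was at 18.9 and 2.29 FPKM. NM_001271096, at 13.2 and 17.4 FPKM, was nearer in size between the control libraries. Of the remaining 3, NM_078480 was at 0.812 and 3.41 FPKM, NM_014281 at 0.985 and 0.218 FPKM and NM_001271100 at 0.0232 and 0.0177 FPKM. Thus the control libraries differed from each other by 58.7% of the gene sum, the knockdown libraries by 0%, and each control library differed from each knockdown library by 99.93% to 99.97%.

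The sum of all PUF60 rows was 69.2 and 55.4 FPKM in NC cells and 51.5 and 48.6 FPKM in CEBPG3 cells. The knockdown mean was 80.4% of the control mean, a log2 difference of -0.30 (standard error 0.10). It depended on the control library, with -0.14 without control 1 and -0.46 without control 2. Both knockdown libraries were lower than both control libraries, but control 1 lay farther from control 2 than control 2 lay from either knockdown library.

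SLC20A2 imports inorganic phosphate across the plasma membrane. The gene lies on chromosome 8 at positions 42416475 to 42541926 of the minus strand. NM_001257181 was at 7.61 and 8.07 FPKM in NC cells, at 0.0706 FPKM in knockdown 1 and listed at 0 in knockdown 2. NM_001257180 was listed at 0 in each NC library and was at 5.82 and 5.99 FPKM in CEBPG3 cells. NM_006749 was at most 0.149 FPKM in any library. The exchange took 98.8% of the gene sum, against 0.440% within the NC pair and 2.43% within the CEBPG3 pair. GENCODE 44 lists 3 coding transcripts of SLC20A2 with 3 start positions and 1 coding sequence in common. The gene sum was 7.64 and 8.13 FPKM in NC and 5.89 and 6.14 FPKM in CEBPG3 cells (log2 difference -0.34, standard error 0.074). These groups did not overlap.

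SRC encodes the founding member of the SRC family of tyrosine kinases. It lies on chromosome 20 at positions 37344685 to 37406050 of the plus strand, and the table holds 2 rows for it. The row NM_005417 was at 2.10 and 1.66 FPKM in NC cells and listed at 0 in each CEBPG3 library. The row NM_198291 was listed at 0 in each NC library and was at 3.099 and 2.81 FPKM in CEBPG3 cells. Each library thus gave all of its SRC signal to a single row, and the row differed between the groups (100% of the sum changed row, with no change inside either group). No fold is given for either row, since each was listed at 0 in a whole group. The gene sum was higher in CEBPG3 cells, 157% of the control mean, or 0.46 on the log2(FPKM + 1) scale with a standard error of 0.11. Leaving out 1 library at a time gave 0.35 to 0.57, and a pseudocount of 0.1 gave 0.63.

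**Figure D2:**
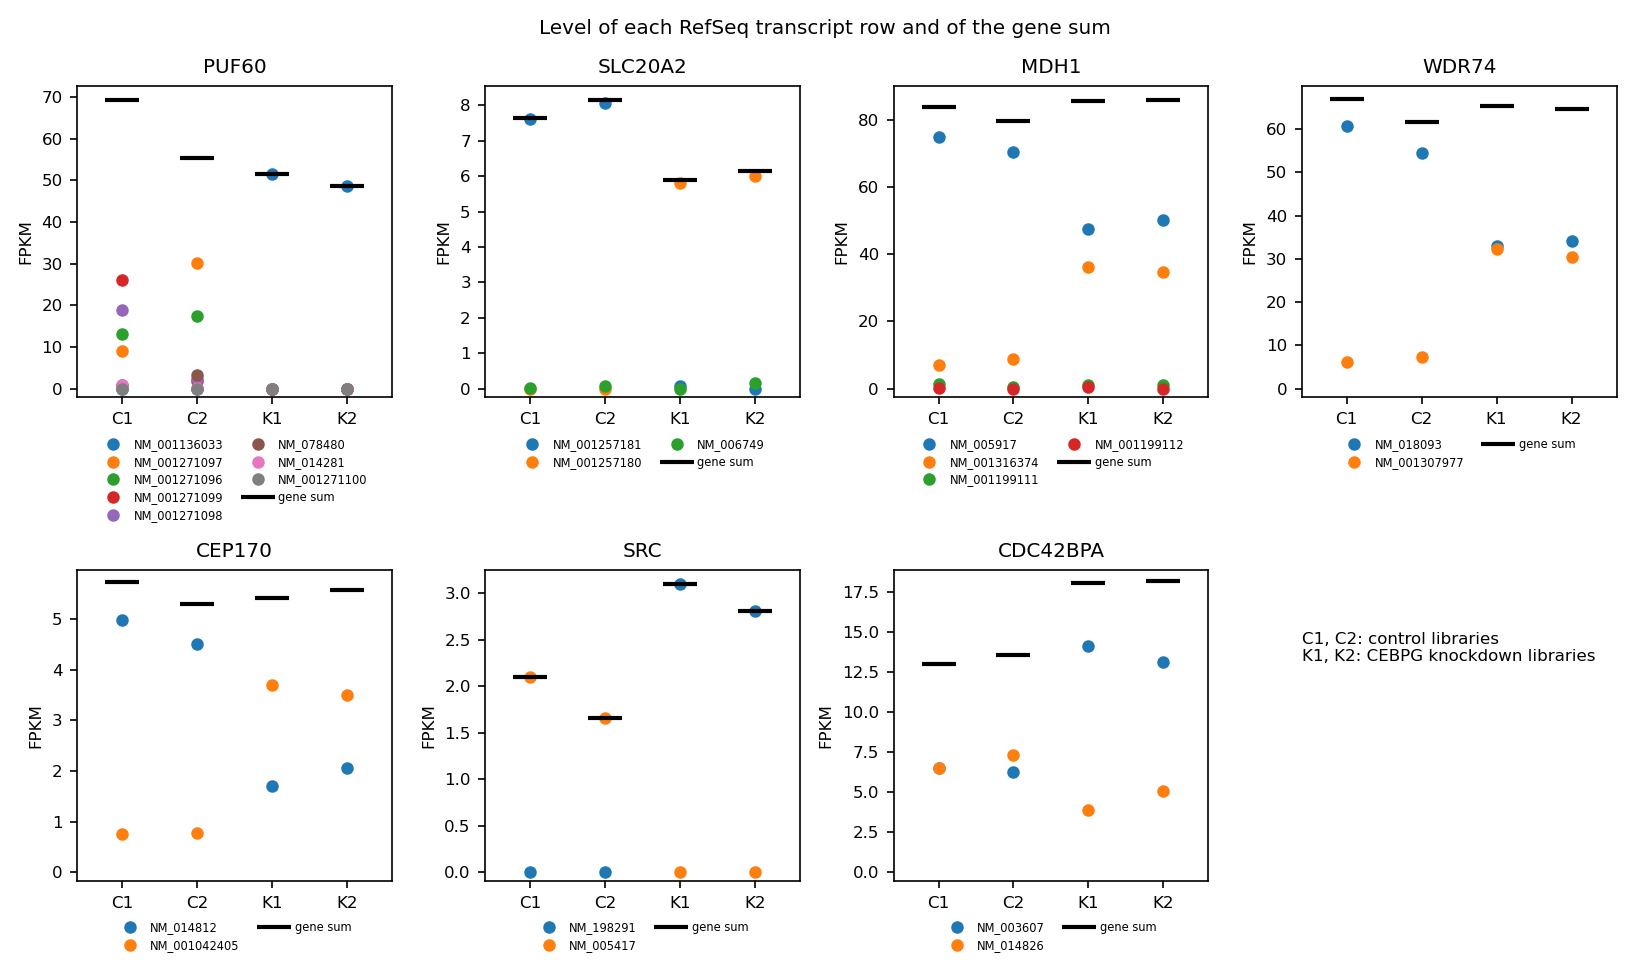
FPKM (y axis) of each RefSeq transcript row (coloured points) and of the gene sum (black bars) in control libraries C1 and C2 and knockdown libraries K1 and K2. The main 2 rows of MDH1 and of WDR74 came nearer to each other without crossing, while the sums stayed between 79.7 and 85.7 FPKM and between 61.7 and 66.95 FPKM.

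MDH1 and WDR74 showed the exchange at high levels and with nearly level sums. MDH1, which interconverts malate and oxaloacetate in the cytosol, lies on chromosome 2 at positions 63588609 to 63607197 of the plus strand. Its main row NM_005917 was at 74.8 and 70.4 FPKM in NC cells and 47.6 and 50.2 FPKM in CEBPG3 cells. Its row NM_001316374 was at 7.08 and 8.84 FPKM in NC cells and 36.1 and 34.6 FPKM in CEBPG3 cells. The share of NM_001316374 went from 9.78% ± 1.85 (SD, n = 2) to 41.3% ± 1.30 (SD, n = 2), and that of NM_005917 from 88.9% ± 0.802 to 57.1% ± 2.04. The groups did not overlap in either row. NM_001199111, between 0.438 and 1.42 FPKM, and NM_001199112, at most 0.640 FPKM, overlapped between the groups. The log2 difference of NM_001199111 was 0.18, and it turned to -0.20 without control 2. Between the group means, the 3 rows with a higher mean differed by 27.7 FPKM in sum and NM_005917 by -23.8 FPKM. The MDH1 sum was 83.6 and 79.7 FPKM in NC and 85.5 and 85.7 FPKM in CEBPG3 cells. The log2 difference was 0.068 (standard error 0.057), with 0.10 without control 1 and 0.033 without control 2.

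WDR74, a factor for maturation of the large ribosomal subunit, lies on chromosome 11 at positions 62832342 to 62841809 of the minus strand. The row NM_018093 was at 60.8 and 54.5 FPKM in NC cells and 32.9 and 34.1 FPKM in CEBPG3 cells. The row NM_001307977 was at 6.15 and 7.23 FPKM in NC cells and 32.4 and 30.4 FPKM in CEBPG3 cells. Its share went from 10.5% ± 1.80 (SD, n = 2) to 48.4% ± 1.77 (SD, n = 2), so that both rows were nearly equal after knockdown. On the log2(FPKM + 1) scale NM_001307977 stood 2.08 higher and NM_018093 stood 0.76 lower. The group means differed by 24.7 FPKM in NM_001307977 and by -24.1 FPKM in NM_018093. The gene sum was 66.95 and 61.7 FPKM in NC and 65.3 and 64.6 FPKM in CEBPG3 cells, and the groups overlapped. The log2 difference of 0.015 was smaller than its standard error of 0.062, and its sign turned under median-ratio scaling (-0.0038), with columns scaled to one sum (-0.0073) and without control 2 (-0.043).

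The RefSeq promoter windows (GRCh38.p14) list 2 start sites each for MDH1 and WDR74, 183 and 69 bases apart, so that 1 window holds both. They are shown because they hold the tabulated starts of MDH1 and WDR74, whose rows converged while the sum stayed near level. Which start belongs to which row of the table could not be read from the files. Single capitals mark the start bases. The windows are chr2:63588896-63589195 (plus strand) and chr11:62839541-62839840 (minus strand), written 5′ to 3′ on the strand of the gene.
MDH1: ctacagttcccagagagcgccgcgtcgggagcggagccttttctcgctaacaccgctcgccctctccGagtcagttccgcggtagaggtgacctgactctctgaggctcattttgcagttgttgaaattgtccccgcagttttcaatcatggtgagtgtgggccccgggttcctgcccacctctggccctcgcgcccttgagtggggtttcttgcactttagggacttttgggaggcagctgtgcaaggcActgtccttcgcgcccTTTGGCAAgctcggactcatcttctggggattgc
WDR74: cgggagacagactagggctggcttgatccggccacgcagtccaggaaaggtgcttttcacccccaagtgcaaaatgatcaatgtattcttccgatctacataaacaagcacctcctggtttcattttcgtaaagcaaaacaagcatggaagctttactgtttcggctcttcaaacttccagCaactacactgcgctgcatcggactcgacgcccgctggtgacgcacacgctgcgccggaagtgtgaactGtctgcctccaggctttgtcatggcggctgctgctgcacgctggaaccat

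A run of capitals in the MDH1 window marks its match to TTGCNNAA, a C/EBP site pattern, read on the other strand, which lies downstream of the second start. The MDH1 window set on the first start, not shown, holds no match. That pattern was searched on both strands and is held by 10.5% of 35116 windows outside chromosome 8, and the MDH1 window holds no TGATGNAA, a C/EBP-ATF pattern held by 3.62%. The WDR74 window and those of CEP170 and CDC42BPA, which list 1 start each, hold neither pattern. PUF60 and SLC20A2, on chromosome 8, were not searched, and no window was listed for SRC. A match is a stretch of letters and not a binding site.

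CEP170, a protein of the mother centriole, lies on chromosome 1 at positions 243124428 to 243255348 of the minus strand. NM_014812 was at 4.97 and 4.51 FPKM in NC cells and 1.71 and 2.06 FPKM in CEBPG3 cells. NM_001042405 was at 0.754 and 0.783 FPKM in NC cells and 3.70 and 3.50 FPKM in CEBPG3 cells. The order of the rows turned over, with NM_001042405 at 14.0% ± 1.15 (SD, n = 2) of the sum in the control group and 65.7% ± 3.82 (SD, n = 2) in the knockdown group. The group means differed by 2.83 FPKM in NM_001042405 and by -2.86 FPKM in NM_014812. The gene sum was 5.72 and 5.29 FPKM in NC cells and 5.40 and 5.56 FPKM in CEBPG3 cells, which overlap. Its log2 difference of -0.0048 (standard error 0.078) changed sign without control 1 (0.043) and without knockdown 1 (0.013).

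CDC42BPA, a kinase of actomyosin regulation, had a higher row that outweighed the lower one. It lies on chromosome 1 at positions 226989865 to 227318492 of the minus strand. NM_003607 was at 6.51 and 6.24 FPKM in NC cells and 14.2 and 13.1 FPKM in CEBPG3 cells. NM_014826 was at 6.49 and 7.33 FPKM in NC cells and 3.91 and 5.07 FPKM in CEBPG3 cells. Both rows held near-equal shares in the control group, with NM_003607 at 48.03% ± 2.92 (SD, n = 2), and this row held 75.2% ± 4.40 (SD, n = 2) after knockdown. The group means differed by 7.27 FPKM in NM_003607 and by -2.42 FPKM in NM_014826. The sum was higher, at 18.07 and 18.2 FPKM against 13.0 and 13.6 FPKM in NC cells (log2 difference 0.42, standard error 0.062), without overlap.

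**Figure D3:**
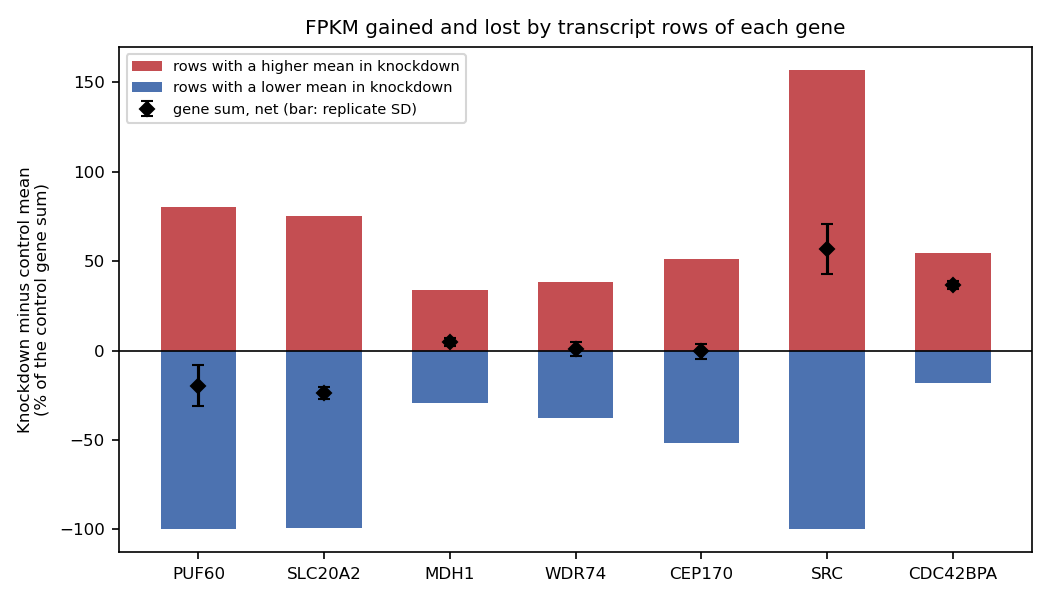
Difference of the knockdown and control means, in percent of the control gene sum (y axis), summed over rows with a higher mean (red) and rows with a lower mean (blue) for each gene; diamonds give the net change of the gene sum and its bars the replicate SD. The net change lay within 5% for MDH1, WDR74 and CEP170, was -19.6% for PUF60 and -23.8% for SLC20A2, and was 36.5% for CDC42BPA and 56.9% for SRC.

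Set side by side, the gene sums fell into 3 kinds. Those of PUF60 and SLC20A2 were lower in CEBPG3 cells, those of SRC and CDC42BPA were higher, and those of WDR74 and CEP170 overlapped between the groups, with MDH1 higher by 4.84%. Among all 10968 gene sums tested, 34.3% were higher and 30.5% lower without overlap, beside 3 higher and 2 lower of the 7. Each of the 7 gene-sum differences was below 0.5 in size on the log2(FPKM + 1) scale, though that of SRC reached 0.63 with a pseudocount of 0.1 and 0.57 without control 1, whereas a row of PUF60 stood 5.63 higher, of WDR74 2.08, of MDH1 2.03, of CEP170 1.38 and of CDC42BPA 0.99. With a pseudocount of 0.1 in place of 1, values that rest on rows near 0 moved most, to 8.58 for NM_001136033 of PUF60, from -3.09 to -5.93 for NM_001257181 of SLC20A2 and to 2.09 for NM_001042405 of CEP170.

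To compare the 7 genes with the rest of the table, the share moved was computed for every gene with at least 2 rows and a mean sum of at least 1 FPKM, as the part of the gene sum (0% to 100%) that lies on other rows in the mean of one group than in the other. The median of these 5556 genes was 5.65% between the groups. Among the members it was 100% for SRC, 99.95% for PUF60, 98.8% for SLC20A2, 51.7% for CEP170, 37.9% for WDR74, 31.8% for MDH1 and 27.2% for CDC42BPA, which places them between the first and rank 350. In all 7 genes it exceeded the larger of the shares moved between libraries of the same group, as it did in 23.5% of the 5556 genes. The members were chosen on this contrast, so nothing is read from their ranks or from this count. A difference of group means was also set here against a difference of single libraries. The pairs of a control and a knockdown library ranged from 98.8% to 99.7% for SLC20A2, 48.2% to 55.2% for CEP170, 35.4% to 40.4% for WDR74, 29.8% to 34.1% for MDH1 and 22.0% to 32.4% for CDC42BPA. Libraries of the same group differed by at most 6.23% in these 5 genes. PUF60 was the exception among the 7 genes, with 58.7% between its control libraries.

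**Figure D4:**
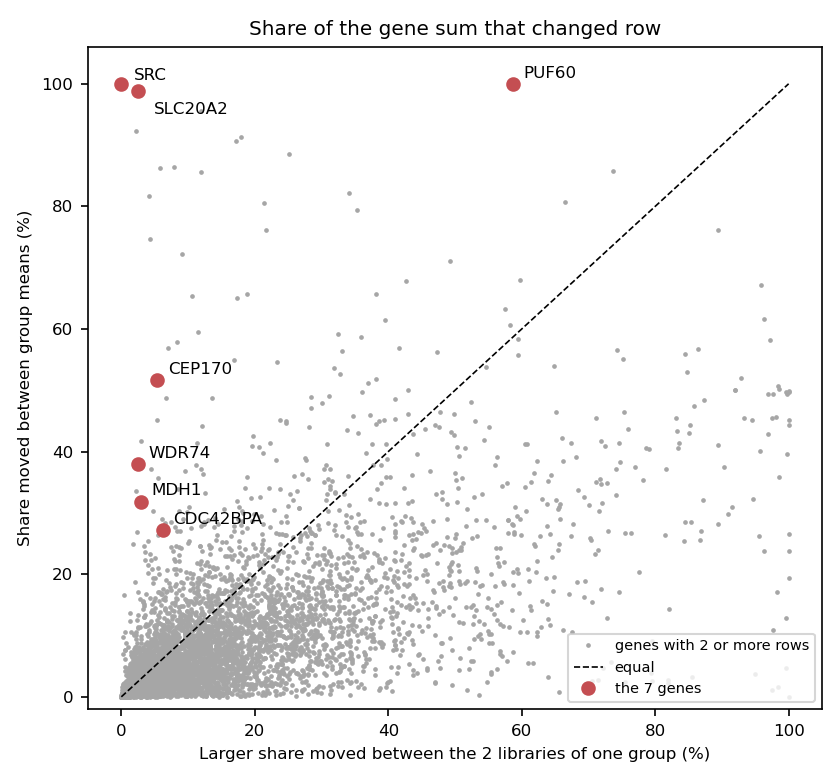
Share of the gene sum that changed row between the group means (percent, y axis) against the larger share that changed row between the 2 libraries of one group (percent, x axis), for 5556 genes (grey) and the 7 genes (red); the dashed line marks equal values. SRC and SLC20A2 lie at the upper left, PUF60 lies at 58.7% on the x axis, and the other 4 lie at the left between 27.2% and 51.7% on the y axis.

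Exchange between rows was also common between libraries of the same group. The median share moved was 6.40% in the NC pair and 6.44% in the CEBPG3 pair, and 6.75% to 7.37% in the 4 pairs of a control with a knockdown library. Genes with a row over 1 and a row under -1 (log2) numbered 103 in the NC pair and 94 in the CEBPG3 pair. The 4 pairs across groups gave 95, 103, 113 and 115 genes. PUF60 was opposed in this way also between the control libraries, and none of the 7 genes was between the knockdown libraries. PUF60 and SLC20A2 were opposed in all 4 pairs across groups and CEP170 in the 2 pairs with knockdown 1.

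**Figure D5:**
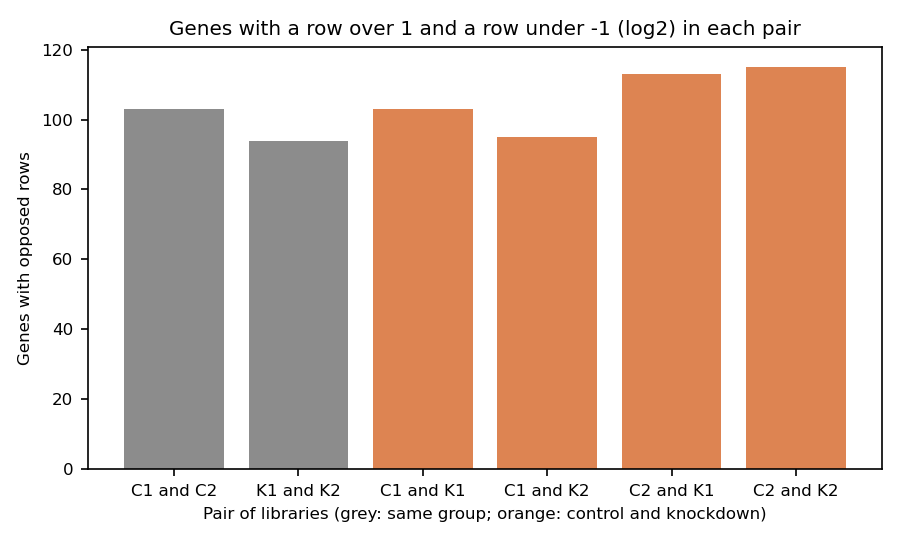
Number of genes (y axis) with at least 1 row over 1 and at least 1 row under -1 on the log2(FPKM + 1) scale in each pair of single libraries; grey bars pair libraries of the same group and orange bars a control (C) with a knockdown (K) library. Counts were 94 and 103 within groups and 95 to 115 across groups.

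The 23 rows are all mRNA accessions (NM), and all 23 were found under their symbols in a RefSeq gene table. That table lists 11 curated transcripts of PUF60 against 8 in the data, 9 of WDR74 against 2, 7 of CDC42BPA against 2 and 3 of CEP170 against 2, while SLC20A2, MDH1 and SRC had every curated transcript in the data. How reads from transcripts without a row were treated is not known from the files, and the effect on the shares was not tested. In GENCODE 44, coding transcripts of PUF60 numbered 16, against 3 to 7 for the other 6 genes and a median of 4 over 5057 genes with at least 2 rows and at least 2 coding transcripts. Exonic bases present in every one of these coding transcripts made up 6.59% for SRC, 13.6% for CEP170, 32.4% for MDH1 and 41.9% for PUF60. They made up 44.2% for CDC42BPA, 52.8% for WDR74 and 56.7% for SLC20A2. The 7 values lay on both sides of the median of 34.5%. They cover the GENCODE transcripts of a gene and not its RefSeq rows. How much sequence those rows share was not measured.

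Rows listed at 0 in a whole group were found in other genes too. Among 9738 rows of genes with at least 2 rows and at least 10 FPKM, 101 were at 0 in both control libraries and 107 in both knockdown libraries, while no row of the table was at 0 in all 4. A value of 0 in this table can be a failed estimate, so such rows are said here to be listed at 0 and not to be absent.

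The 5 other genes most like the members had a mean sum of at least 5 FPKM, a gene sum that differed by less than 0.5 (log2), and the highest share moved after subtracting the larger share moved between replicates. They were RAP1A, a small GTPase (86.4% moved), SERF2 (65.4%), LSS, the lanosterol synthase of sterol synthesis (82.2%), the tyrosine kinase ABL1 (65.0%) and the forkhead factor FOXJ3 (48.7%). In RAP1A, NM_002884 was listed at 0 in each NC library and at 8.93 and 10.6 FPKM in CEBPG3 cells, and NM_001010935 went from 10.7 and 9.98 FPKM to 1.84 and 1.10 FPKM. In ABL1, NM_005157 was at 0.0468 and 6.53 FPKM in NC and 33.4 and 28.9 FPKM in CEBPG3 cells. The libraries of a group differed by at most 34.2% of the sum in LSS, 17.3% in ABL1, 10.6% in SERF2, 7.89% in RAP1A and 6.71% in FOXJ3.

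Splicing regulators take part in transcript choice, and nonsense-mediated decay clears transcripts with early stop codons. Genes of both processes were read at the gene level. Of 54 splicing regulators tested, PUF60 left out, 14 were lower and 1 was higher in the knockdown (limma, adjusted p under 0.05), against 9.99% lower and 10.9% higher of all genes (20.9% in all). Their median log2 difference was -0.080, against 0.015 for all genes. HNRNPA2B1, an hnRNP protein, was at 343.1 and 342.7 FPKM in NC cells and at 244 and 241 FPKM in CEBPG3 cells (-0.50, standard error 0.055, limma adjusted p = 0.00261). SRSF1, a serine- and arginine-rich splicing factor, went from 92.2 and 90.7 FPKM to 73.0 and 74.1 FPKM (-0.31, limma adjusted p = 0.0114). MBNL2 (-0.39, adjusted p = 0.019), RBM17 (-0.36, 0.0115), FUBP1 (-0.36, 0.0108) and CLK2 (-0.31, 0.0329) were also lower in limma, and RBM5 was the gene that was higher (0.25, 0.0374). Of 22 genes of nonsense-mediated decay, UPF3A (-0.35, limma adjusted p = 0.0159) and DCP1A (-0.28, 0.0499) were lower and none was higher. With all 4 libraries 27.8% of the splicing regulators were called, against 20.9% of all genes. This order turned without knockdown 1, where limma called 1 regulator (1.85%, against 7.52% of all genes), and without knockdown 2, where it called 3 (5.56%, against 7.64%). Without control 2 it called 9 (16.7%, against 14.7%). The median log2 difference of the regulators was -0.082 without knockdown 1 and -0.085 without knockdown 2. In these fits the number of calls fell and the median difference did not. That median did move with the control libraries. It was -0.064 without control 1 (all genes 0.038) and -0.12 without control 2 (all genes -0.011). Without either knockdown library none of the nonsense-mediated decay genes was called (1 and 4 at an unadjusted p under 0.05 in limma).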

How the data were processed

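RNA-seq was performed on 4 libraries labelled NB4, 2 control and 2 CEBPG knockdown. The authors deposited 1 table of FPKM values, a row for each RefSeq transcript. Total RNA went into TruSeq libraries (per the labels), and the submitters' processing notes name HISAT2 2.0.5 and hg38. The transcript quantifier, the division of shared reads and the annotation release are not given in the sources used here. Low values showed no steps of whole reads (the most common ratio of the control libraries made up 0.286% of 2798 genes), so depth was unknown.

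Of 29265 rows, 183 without values and 164 without a symbol (0.250% of FPKM) were left out. Rows were summed by symbol. Gene sums and rows with a mean of at least 1 FPKM were compared as log2(FPKM + 1) in limma 3.58.1 (R 4.3.3, mean trend, 2-sided, Benjamini-Hochberg adjustment over all, no block), tested on simulated data. A log2 difference on this scale understates changes of low rows. Shares were compared without a test. Positions are from GENCODE 44. The members and lists were chosen with earlier results of these data known. Named were all rows of the 7 genes, CEBPG, 5 other genes with at least 5 FPKM and a gene-sum difference under 0.5 (log2), taken by the highest share moved less the larger share moved between replicates, and up to 6 called genes of each list; RBM5 was added after its value was seen. EIF4EBP1, the gene followed by the study, was at 138.9 and 123 FPKM in the control and 33.6 and 33.3 FPKM in the knockdown libraries. Alternatives were a pseudocount of 0.1, no filter, the replicate block, other scalings, other row sets and each library left out. Pairs of single libraries were added after seeing the data.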

Additional observations from a re-analysis of the deposited data

How the results depend on the processing

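With 0.1 FPKM added to every row, the share moved changed from its reported value by more than the replicate spread in PUF60 (to 98.4%), SLC20A2 (94.9%) and SRC (92.0%). Using NM accessions only could change nothing, since all 23 rows are NM, and dropping rows under 1 FPKM removed no row of WDR74, CEP170 or CDC42BPA. Without rows under 1 FPKM no share could be given for SRC, whose control row was dropped. Leaving out each library gave 99.93% to 99.97% for PUF60, 98.6% to 99.4% for SLC20A2, 100% for SRC, 49.01% to 54.4% for CEP170, 36.7% to 39.2% for WDR74, 30.6% to 33.3% for MDH1 and 24.1% to 30.3% for CDC42BPA. Genes with opposed rows (47) numbered 105 with a pseudocount of 0.1, 68 to 92 without 1 library, and 103, 94, 95, 103, 113 and 115 in pairs of single libraries. The cause was not tested for these counts.

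Gene sums with an adjusted p under 0.05 in limma (2288) numbered 882 with no filter and 825 to 1925 without 1 library (825 without knockdown 1, 838 without knockdown 2). Of the 2288, 1192 were higher and 1096 lower, against 1249 and 1427 with columns scaled to one sum, 1265 and 1420 with median-ratio scaling, 1207 and 718 without control 1, and 697 and 915 without control 2. Called rows (25, and 3213 at an unadjusted p under 0.05) numbered 2 with a pseudocount of 0.1, 1 with no filter, 141 with median-ratio scaling, 188 with columns scaled to one sum, and 0 without any 1 library in limma (2085 to 2679 at an unadjusted p under 0.05). Called splicing regulators (15) numbered 6 with no filter, 23 with columns scaled to one sum and 1 to 11 without 1 library. Called genes of nonsense-mediated decay (2) numbered 4 with median-ratio scaling and 0 with no filter in limma (6 at an unadjusted p under 0.05), and 0 to 2 without 1 library (1 to 5 at an unadjusted p under 0.05). With 1 library left out, the lone library of a group was assumed to vary like the others.

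The labels name no batch that a replicate number marks, and libraries with the same number deviated from their group means with a correlation of 0.101 across genes. With the replicate block 3440 gene sums, 0 rows (limma, 2992 at an unadjusted p under 0.05), 24 splicing regulators and 4 genes of nonsense-mediated decay were called. Fold changes of the members are the same with and without the block.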
